A study of Mus musculus with 6 samples.

Results

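*Hox* genes encode homeodomain transcription factors that lie in 4 chromosomal clusters, *Hoxa* to *Hoxd*, and are numbered by paralog position from the 3′ end (position 1) to the 5′ end (position 13) of each cluster. Low-numbered genes are switched on early and reach far forward in the embryo, while high-numbered genes mark the trunk's rear end, the limbs and the urogenital tract. They are classical targets of Polycomb repression, in which the PRC2 complex, with Jarid2 as an accessory subunit, marks silent clusters with H3K27me3. In the developing gut and its derived organs, *Hox* transcripts are known mainly from the mesenchyme around the epithelium.

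The genes studied here are those whose single annotated symbol is *Hoxa*, *Hoxb*, *Hoxc* or *Hoxd* followed by a number, each read on the brightest of its probe sets. They were 33 of 18193 genes measured, and 33 of the 39 *Hox* genes of the RefSeq annotation. The other 6 were not analysed here. RNA came from whole pancreases of C57BL/6 embryos at e15.5, 3 wild-type embryos (*Jarid2* WT) and 3 with a pancreas-specific *Jarid2* knock-out (*Jarid2* Δpanc, *Pdx1-Cre* with 2 floxed *Jarid2* alleles), and each RNA was hybridized to its own Affymetrix mouse array. *Pdx1-Cre* acts in the pancreatic epithelium, where it spared some cells, and not in the mesenchyme. In whole-organ RNA, fewer cells of a type and less RNA per cell cannot be told apart. The question was whether transcripts of these Polycomb targets differ in level between both genotypes. The labels number the embryos without naming litters, and the number of arrays limits the precision.

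All 8 pancreas markers examined, among them *Pdx1*, *Ctrb1* and *Cpa1*, had a mean signal above 64, and *Ins2* and *Gcg*, the hormone genes among them, were lower in *Jarid2* Δpanc at an unadjusted p under 0.05 from limma (log2 fold changes -1.05 and -0.60, adjusted p = 0.231 and 0.361). For *Jarid2* the log2 fold change was 0.13 (SE 0.14), on the brightest of its 3 probe sets. Whether any of these probe sets reads the deleted exon was not checked. The paper measured that exon by qRT-PCR and reports that it was reduced in *Jarid2* Δpanc pancreases at e15.5. Single arrays stood apart. *Jarid2* WT replicate 3 had a summed signal of 15187 over 12 skeletal muscle genes against 370 to 529 on the other arrays. *Xist* and the Y-linked *Eif2s3y* split the *Jarid2* WT arrays, replicates 1 and 2 having *Xist* at 24 and 12 and the other 4 arrays at 4197 to 4905. *Eif2s3y* was at 560 and 506 on replicates 1 and 2 of *Jarid2* WT and at 5 to 13 on the other 4 arrays. By these transcripts the sex of the embryos was not balanced between the genotypes, and its part in the fold changes was not tested. *Jarid2* Δpanc replicate 1 was highest in splanchnic mesoderm and blood cell genes, as given beside the *Hox* values further on. The median probe set signal was 35 to 38 per array.

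*Hox* signals above the threshold in e15.5 pancreas lay mostly at the low-numbered end of the clusters. Of the 33 genes, 8 had a mean signal above 64 over the 6 arrays: *Hoxa3*, *Hoxa5*, *Hoxb2*, *Hoxb3*, *Hoxb4*, *Hoxb5*, *Hoxc4* and *Hoxd8*. Of all genes measured, 54.7% were above 64. Signals are linear MAS5 intensities. The brightness of a probe set also depends on its probes, so that signals were set against the threshold and not ranked between genes.

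By position, 7 of 13 measured genes at positions 1 to 5 were above 64, as were 1 of 6 at positions 6 to 8 and 0 of 14 at positions 9 to 13. In this last zone the highest single reading on any array was 42, for *Hoxa9*, and the median of the mean signals was 12.6. By cluster, *Hoxb* had 4 of 9 measured genes above 64, *Hoxa* 2 of 9, *Hoxc* 1 of 7 and *Hoxd* 1 of 8. The genes above 64 did not fill the low end: *Hoxb1* and *Hoxd1*, at position 1, were at the floor of 16 on all arrays, and *Hoxd3* had a mean signal of 17.3. In *Hoxd*, the gene above 64 was *Hoxd8* at position 8, while *Hoxd9* had a mean of 21.0 and *Hoxd10* 2.33. A reading under 64 shows that little signal was seen by that probe set, not that the gene was silent.

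**Figure D1:**
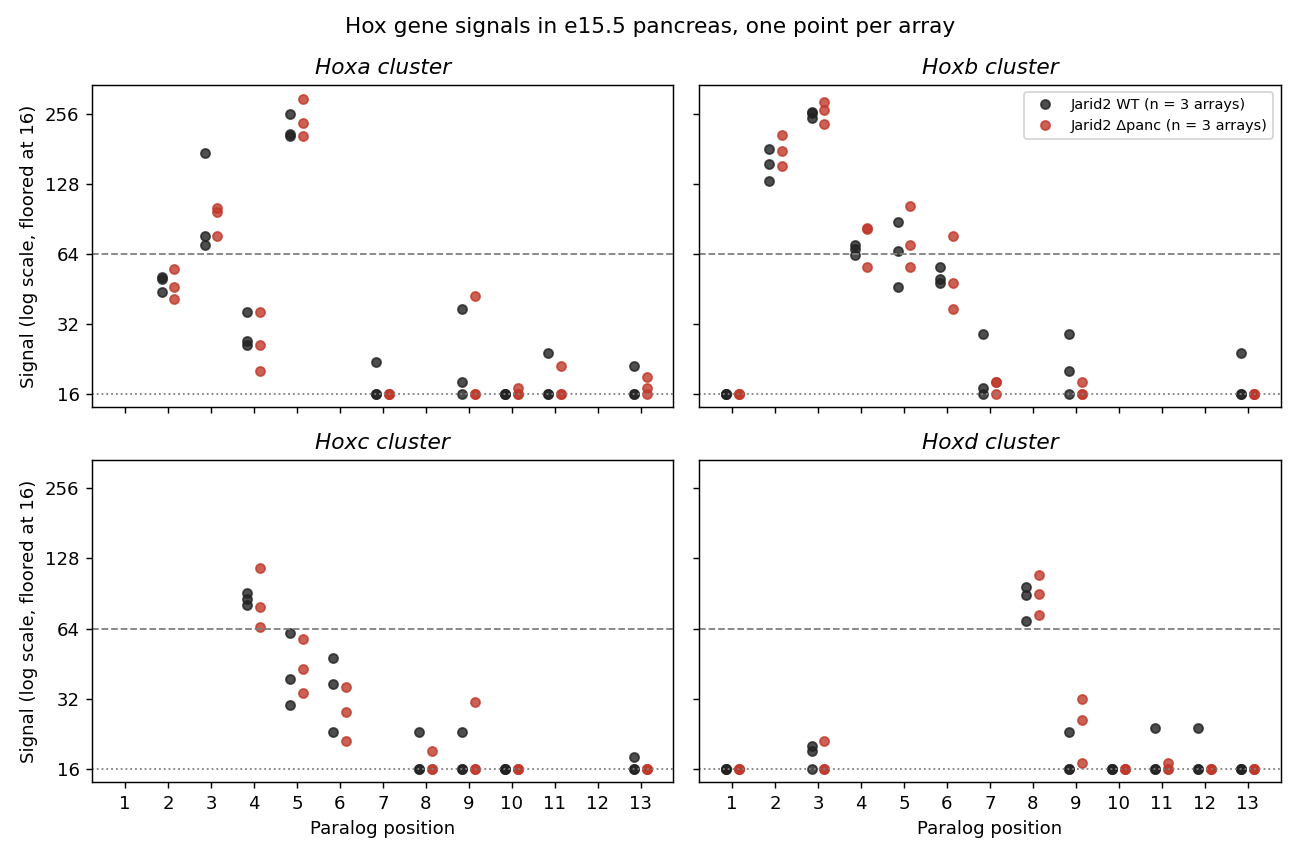
Signal (vertical axis, log scale, values under 16 drawn at 16) of the 33 *Hox* genes by paralog position (horizontal axis) in each cluster, with 1 point per array, black for *Jarid2* WT and red for *Jarid2* Δpanc. Points above the dashed line at 64 lie at positions 2 to 6 and 8, and none of the 14 genes at positions 9 to 13 reaches it.

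Just inside the threshold were *Hoxb4* and *Hoxb5*, with mean signals of 70.2 and 71.5, each above 64 on 4 of the 6 arrays. The other 6 genes were above 64 on every array, each on its brightest probe set. The second probe sets of *Hoxb3*, *Hoxb4* and *Hoxd8* had mean signals of 52.8, 27 and 47.7, under the threshold. Those of *Hoxa5* and *Hoxa3* had 207 and 69.2, above it. Just outside were *Hoxb6* with 52.5, *Hoxa2* with 47.8 and *Hoxc5* with 44.2. *Hoxb6*, which is known for expression in pancreatic mesenchyme, had signals of 50, 48 and 56 in *Jarid2* WT and of 76, 37 and 48 in *Jarid2* Δpanc. It was the only gene of the 25 under the threshold with any array above 64, and the remaining 24 had no reading over 61. Per array, 7 or 8 *Hox* genes were above 64 and 13 to 16 were at or under the floor. On all arrays 5 of the 33 genes were at the floor (*Hoxb1*, *Hoxc10*, *Hoxd1*, *Hoxd10* and *Hoxd13*), and 8.76% of all genes were.

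No *Hox* gene passed the test between *Jarid2* Δpanc and *Jarid2* WT. With limma's adjusted p under 0.05 as the call, 0 of 33 genes were lower and 0 were higher, and 0% of all genes were called in either direction. With the unadjusted p under 0.05, calls numbered 0 lower and 0 higher among *Hox* genes, against 4.44% of all genes lower and 4.36% higher. In none of the 33 did all 3 *Jarid2* Δpanc arrays lie below all 3 *Jarid2* WT arrays (5.66% of all genes did) or above them (5.71%). The 5 *Hox* genes at the floor on all arrays, and the 8.76% of all genes there, could show neither a call nor separate groups. The median log2 fold change was 0 over the 33 genes and over all genes measured. Both medians fell on fold changes of exactly 0, which genes at the floor on all arrays have. With genes at the floor on all arrays left out, the medians were -0.03 over *Hox* genes and 0.01 over all genes. The log2 fold changes ranged from -0.34 for *Hoxb9* to 0.42 for *Hoxd9*, both read near the floor.

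*Hoxa5*, which patterns the mesenchyme of foregut organs such as the lung, had signals of 205, 256 and 209 in *Jarid2* WT and of 296, 234 and 206 in *Jarid2* Δpanc. The groups overlapped, and only *Jarid2* Δpanc replicate 1 was above all controls. The log2 fold change was 0.13 (SE 0.17, 95% interval -0.33 to 0.58, adjusted p = 0.902 from limma). *Hoxb2*, a regulator of hindbrain segments, had 181, 156 and 132 in *Jarid2* WT and 208, 177 and 152 in *Jarid2* Δpanc, with a log2 fold change of 0.20 (SE 0.17, 95% interval -0.26 to 0.65). The groups overlapped, with the highest array in *Jarid2* Δpanc and the lowest in *Jarid2* WT.

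*Hoxb3*, its neighbour in the cluster, varied little between arrays. Its signals were 257, 246 and 261 in *Jarid2* WT and 266, 288 and 231 in *Jarid2* Δpanc, so that the *Jarid2* Δpanc arrays lay on both sides of the controls. The log2 fold change was 0.03 (SE 0.09), and its 95% interval of -0.21 to 0.27 was the narrowest among the 8 genes. *Hoxb4*, known as a regulator of blood progenitors, had 63, 70 and 67 in *Jarid2* WT and 56, 83 and 82 in *Jarid2* Δpanc. *Jarid2* Δpanc replicate 1 was the lowest array and the other 2 the highest. The log2 fold change was 0.12 (SE 0.18), and without *Jarid2* Δpanc replicate 1 it was 0.31, with an unadjusted p of 0.00649 and an adjusted p of 0.403 from limma.

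*Hoxb5* had signals of 66, 46 and 88 in *Jarid2* WT and of 103, 56 and 70 in *Jarid2* Δpanc. The spread within each group was wide, and the log2 fold change of 0.20 (SE 0.35) had a 95% interval of -0.72 to 1.12. Without *Jarid2* Δpanc replicate 1 it was -0.04. *Hoxc4* had 81, 86 and 91 in *Jarid2* WT and 79, 116 and 65 in *Jarid2* Δpanc, which scattered on both sides of the controls (log2 fold change -0.03, SE 0.23, 95% interval -0.65 to 0.59). *Hoxd8* had 69, 97 and 89 in *Jarid2* WT and 90, 109 and 73 in *Jarid2* Δpanc, with overlapping groups (log2 fold change 0.09, SE 0.21, 95% interval -0.46 to 0.64).

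*Hoxa3*, which is needed for the thymus and parathyroid, showed how much a single array can weigh. Its brightest probe set had signals of 173, 76 and 70 in *Jarid2* WT and of 101, 97 and 76 in *Jarid2* Δpanc. *Jarid2* WT replicate 1 was far above the other 5 arrays, and the log2 fold change of -0.10 (SE 0.41) had a 95% interval of -1.17 to 0.97. Without that array it was 0.31 (SE 0.16, adjusted p = 0.767 from limma). Of the 8 genes, 6 had a positive and 2 a negative fold change, all between -0.10 and 0.20. The half-width of their 95% intervals ran from 0.24 to 1.07 on the log2 scale, so that changes of that size could not be told from 0 with 3 arrays per group. Their median within-group SD was 0.25 on the log2 scale, and that of 4628 other genes of the same signal range was 0.18.

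Probe sets of the same gene gave different values. Of the 33 genes, 11 had more than 1 probe set, and over all 48 *Hox* probe sets 1 was higher and 1 lower at an unadjusted p under 0.05, in a fit over all 34945 probe sets with 1 symbol, of which 4.61% were higher and 3.66% lower at that threshold. None of the 48 passed an adjusted p under 0.05, which 0.00286% of all probe sets did. In these same 2 probe sets the groups did not overlap, where 6.12% of all probe sets lay above and 4.61% below every control. Both belonged to genes above 64, *Hoxa5* and *Hoxa3*, and were noticed after their values were seen.

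The less bright probe set of *Hoxa5* had signals of 170, 193 and 179 in *Jarid2* WT and of 239, 231 and 230 in *Jarid2* Δpanc. All 3 *Jarid2* Δpanc arrays were above all controls. The group means were 181 ± 11.6 (SD, n = 3) and 233 ± 4.93 (SD, n = 3), and the log2 fold change was 0.37 (SE 0.05, 95% interval 0.23 to 0.51). It had an unadjusted p of 0.00138 and an adjusted p of 0.246 from limma, which missed the threshold, also with any single array left out. Leaving out single arrays gave 0.33 to 0.42. The brighter probe set, whose suffix (x_at) marks probes that may also bind other transcripts, had 223 ± 28.4 (SD, n = 3) and 245 ± 46.1 (SD, n = 3). The difference between both probe sets was not tested.

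For *Hoxa3* the second probe set had signals of 77, 70 and 81 in *Jarid2* WT and of 69, 61 and 57 in *Jarid2* Δpanc. All *Jarid2* Δpanc arrays were below all controls, with a log2 fold change of -0.29 (SE 0.10, unadjusted p = 0.0336, adjusted p = 0.543 from limma). Leaving out *Jarid2* WT replicate 1 or 3 or *Jarid2* Δpanc replicate 2 or 3 raised limma's unadjusted p to between 0.0876 and 0.0980, with log2 fold changes of -0.28 to -0.23. The brightest probe set of *Hoxa3* carries a suffix (s_at) for probes shared between transcripts. A further 2 probe sets of this gene were dim, with mean signals of 30.2 and 13. The second probe set of *Hoxb3* had 47, 37 and 54 in *Jarid2* WT and 71, 60 and 48 in *Jarid2* Δpanc, which overlapped (log2 fold change 0.37, SE 0.21).

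**Figure D2:**
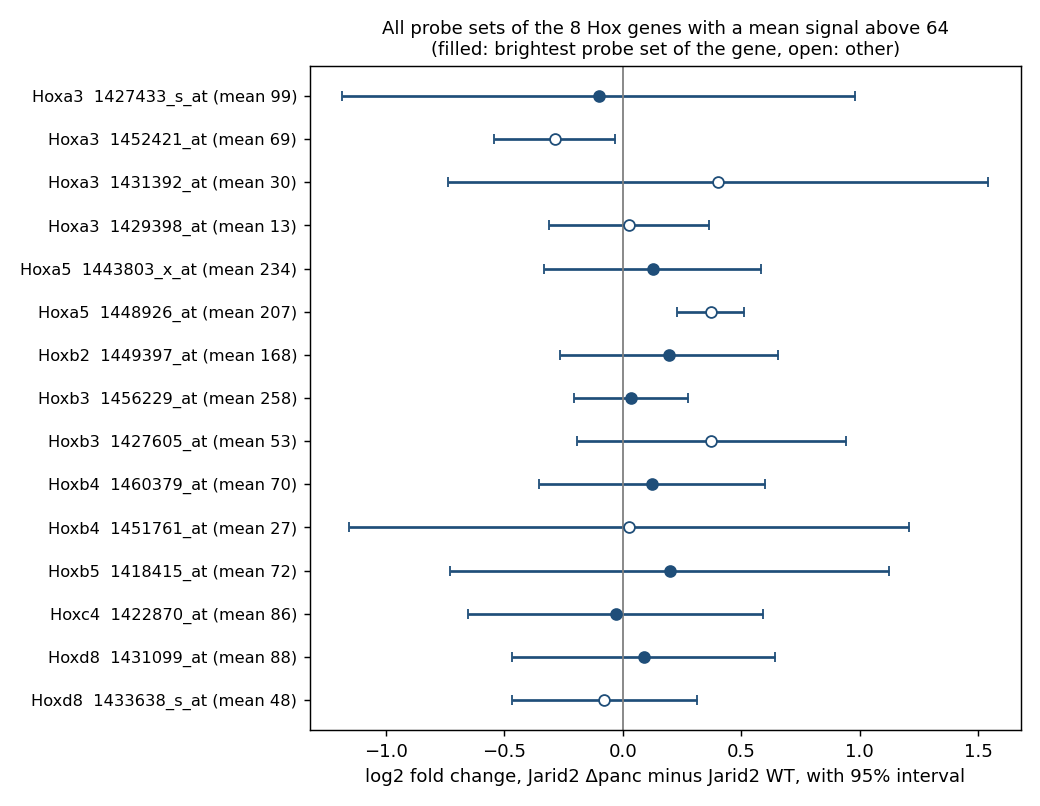
Log2 fold change of *Jarid2* Δpanc over *Jarid2* WT (horizontal axis, points with 95% intervals from limma over all probe sets) for the 15 probe sets of the 8 genes with a mean signal above 64, filled for the brightest probe set of each gene and open for others. The intervals of the open points of *Hoxa5* (0.23 to 0.51) and of the second probe set of *Hoxa3* (-0.54 to -0.03) do not hold 0, and all 8 filled points have intervals that do.

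**Figure D3:**
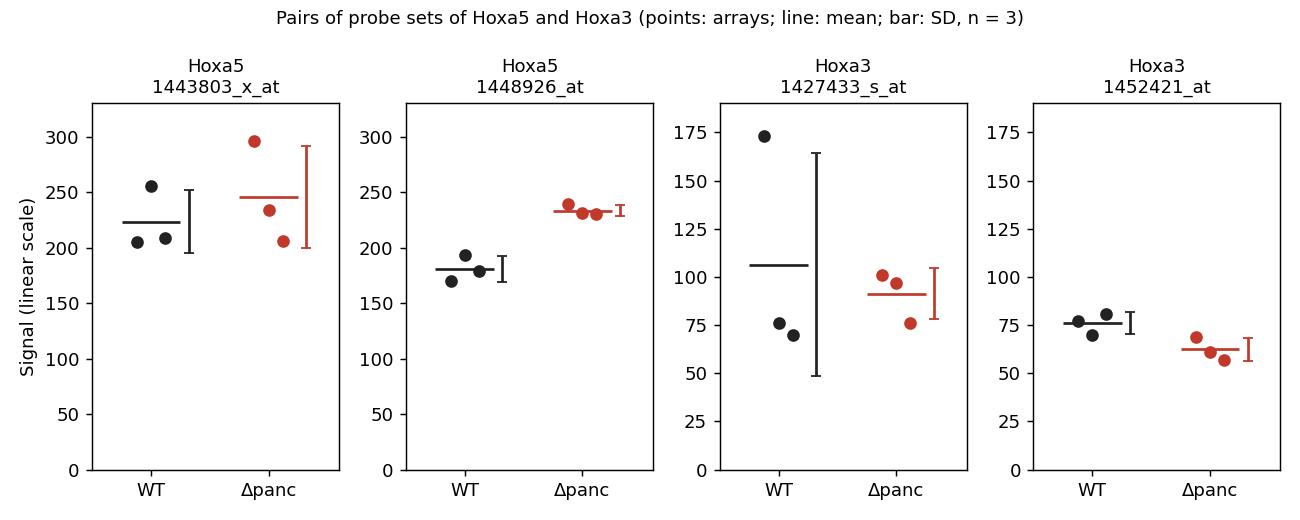
Signal (vertical axis, linear) on each array for a pair of probe sets of *Hoxa5* and a pair of *Hoxa3*, with points for arrays, lines for means and bars for the SD (n = 3). For *Hoxa5* the groups overlap in the brighter probe set (left) and separate in the other, at most 193 in *Jarid2* WT and at least 230 in *Jarid2* Δpanc.

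The start of *Hoxa5* is shown with that of *Hoxa13*, a gene at the other end of the same cluster, because Polycomb complexes are known to gather at promoters rich in CG pairs. The windows run from 250 bases before to 50 bases after the start in RefSeq (GRCm38.p6, minus strand), at chr6:52204538-52204837 and chr6:52260831-52261130. Capitals mark the pair CG, which reads the same on both strands.
Hoxa5: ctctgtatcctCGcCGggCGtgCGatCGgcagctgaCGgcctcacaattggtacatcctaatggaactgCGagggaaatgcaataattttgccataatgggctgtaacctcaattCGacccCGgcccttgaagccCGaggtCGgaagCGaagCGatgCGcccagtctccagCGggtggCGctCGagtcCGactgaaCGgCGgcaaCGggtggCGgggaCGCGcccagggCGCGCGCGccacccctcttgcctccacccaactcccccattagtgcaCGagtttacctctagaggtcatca
Hoxa13: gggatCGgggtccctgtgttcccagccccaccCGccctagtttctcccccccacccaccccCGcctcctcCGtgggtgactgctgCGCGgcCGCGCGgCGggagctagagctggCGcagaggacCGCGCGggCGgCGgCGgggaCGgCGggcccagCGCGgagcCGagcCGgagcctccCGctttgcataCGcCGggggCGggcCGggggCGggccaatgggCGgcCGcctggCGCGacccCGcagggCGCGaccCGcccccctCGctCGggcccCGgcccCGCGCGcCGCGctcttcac
The *Hoxa5* window held 29 CG pairs and the *Hoxa13* window 45, and 12.9% and 1.93% of all 32851 promoter windows held at least as many. Sequences were at hand for 22 *Hox* genes, in 24 windows with a median of 14.5 CG pairs, against 7 over all windows. The 5 genes above a signal of 64 with a window had 6 to 29 CG pairs (median 14), and the 16 windows of 14 measured genes under it had 4 to 45 (median 17.5), so that both ranges overlapped. *Hoxa13* was under the threshold with a mean signal of 14.2, and *Hoxa5* above it with 234. The letters are a description of the windows and say nothing about binding.

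Of the bright *Hox* genes, most were highest on *Jarid2* Δpanc replicate 1 or 2. Among the 8 genes above 64, 3 (*Hoxa5*, *Hoxb2* and *Hoxb5*) were highest on *Jarid2* Δpanc replicate 1 and 4 (*Hoxb3*, *Hoxb4*, *Hoxc4* and *Hoxd8*) on replicate 2. Among 4628 other genes of the same signal range, 19.8% and 20.3% were highest on these arrays. The mean log2 signal of the 8 genes, set against the *Jarid2* WT mean, was 0.17 on both, but -0.10 on *Jarid2* Δpanc replicate 3. The *Jarid2* WT arrays had 0.07, -0.05 and -0.02. The groups overlapped, since the *Jarid2* Δpanc arrays lay on both sides of the controls.

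Genes of some other cell types were also high on *Jarid2* Δpanc replicate 1, but on replicate 2 only the mesothelial list stood above all controls in this way. The 7 measured regional factors of the splanchnic mesoderm, set against the *Jarid2* WT mean, had a mean log2 signal of 0.66 on *Jarid2* Δpanc replicate 1 and of -0.04 to 0.02 on the other 5 arrays. In *Jarid2* WT their summed signal was 1073 to 1251, and in *Jarid2* Δpanc 1142 to 1464. *Tlx1*, a factor needed for the spleen, had a signal of 151 there and of 34 to 55 elsewhere. *Tcf21*, a mesenchymal factor, had 550 there and 191 to 297 elsewhere. All *Jarid2* Δpanc arrays were above all controls for *Tcf21*, as in 5.71% of all genes. *Isl1*, the brightest of the list, had 445 there and 568 to 770 elsewhere, so that it weighed heavily on the summed signal. The paper counts *Isl1* among the genes needed for endocrine cells to be specified or to differentiate. *Nkx3-2*, which marks early pancreatic mesenchyme, had signals of 5 to 34. The 5 mesothelial genes had a mean of 0.42 and 0.25 on *Jarid2* Δpanc replicates 1 and 2 and -0.04 to 0.01 on the other arrays. *Upk3b* had signals of 342 and 347 on these 2 arrays and 199 to 241 elsewhere, and *Wt1* had 199 on the first and 88 to 112 on the rest. *Lrrn4*, with 172 and 171 there against 116 to 171 elsewhere, and the dim *Msln*, with 3 to 27 over all arrays, did not stand out in this way. In *Jarid2* WT the 5 genes summed to 554 to 615, and in *Jarid2* Δpanc to 549 to 873.

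The 7 blood cell genes had 0.76 on *Jarid2* Δpanc replicate 1, and -0.34 to 0.29 elsewhere, and summed to 1529 to 2253 in the *Jarid2* WT arrays against 2014 to 3238 in *Jarid2* Δpanc. The granulocyte and macrophage factor *Spi1* was the gene of that list with an unadjusted p under 0.05 in limma, where 4.36% of all genes were higher. Its log2 fold change was 0.82 (SE 0.27, adjusted p = 0.496 from limma). *Spi1* was dim, with signals of 22, 31 and 33 in *Jarid2* WT and of 48, 66 and 39 in *Jarid2* Δpanc. *Csf1r* and *Cd34*, the brightest members of the list, had 0.29 and 0.14. The part of these cell types in the *Hox* signals was not tested. With *Jarid2* Δpanc replicate 1 left out, which must lower the genes that were highest on it, the log2 fold changes of *Hoxa5*, *Hoxb2* and *Hoxb5* were -0.02, 0.08 and -0.04. Those of the other 5 genes were then -0.18 for *Hoxa3*, 0.02 for *Hoxb3*, 0.31 for *Hoxb4*, 0.02 for *Hoxc4* and 0.08 for *Hoxd8*.

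No call was made among general mesenchymal genes. The 12 genes of pancreatic mesenchyme and fibroblasts, among them *Col3a1* and *Col1a2*, had log2 fold changes of -0.20 to 0.22 (median 0.07). Of these, 0 passed an unadjusted p under 0.05 in limma, where 4.44% of all genes were lower and 4.36% higher. Such shares leave few calls in a list this short. The summed signal of the 12 genes on the *Jarid2* WT arrays was 30043 to 36802, against 33200 to 37908 in *Jarid2* Δpanc, and 1 gene of the 12 had a mean signal under 64. *Jarid2* WT replicate 3, with its muscle transcripts, was highest in none of the 8 *Hox* genes and lowest in 2. Of 4628 other genes of the same signal range, 16.2% were highest and 17.9% lowest on it. The part of muscle tissue in the *Hox* signals was not tested. The 5 endothelial genes had log2 fold changes of 0.01 to 0.18. None of the 6 cartilage, 7 neural crest, 7 intestinal and 8 kidney and adrenal genes measured passed an unadjusted p under 0.05 in limma, against the same shares of all genes. The intestinal *Cdx2* had signals of 11 to 34.

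**Figure D4:**
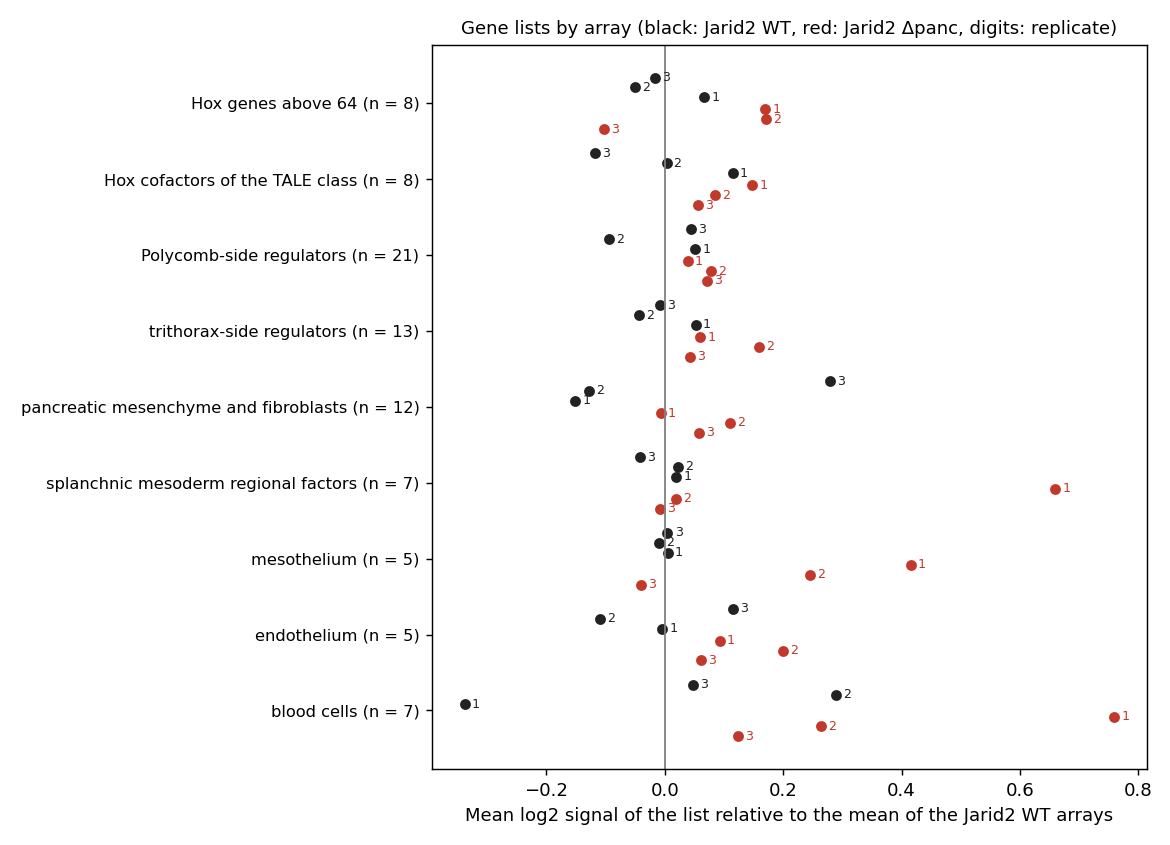
Mean log2 signal of gene lists on each array set against the mean of the 3 *Jarid2* WT arrays (horizontal axis, log2 units), black for *Jarid2* WT, red for *Jarid2* Δpanc, with digits for the replicate. The *Hox* genes above 64 are at 0.17 on *Jarid2* Δpanc replicates 1 and 2 and at -0.10 on replicate 3, and the splanchnic factors are at 0.66 on replicate 1.

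TALE homeodomain proteins of the Pbx, Meis and Pknox families bind DNA jointly with Hox proteins. Of 8 measured cofactor genes, 5 had a mean signal above 64, where 54.7% of all genes did, and limma's unadjusted p was under 0.05 for 1 that was higher and 0 that were lower (4.36% and 4.44% of all genes). This was *Meis1*, with signals of 578, 520 and 516 in *Jarid2* WT and of 590, 598 and 596 in *Jarid2* Δpanc (log2 fold change 0.15, SE 0.05, adjusted p = 0.532 from limma). All *Jarid2* Δpanc arrays were above all controls. *Pbx3* lay above its controls on all *Jarid2* Δpanc arrays too, with 0.14 (SE 0.06, unadjusted p = 0.0923 from limma). Of all genes, 5.71% lay above their controls in this way. *Meis2*, the brightest of the list, had -0.23 (SE 0.09), and its groups overlapped.

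Of 19 ParaHox and related homeobox genes, *Pdx1* was the only one with a mean signal above 64, at 417, and had a log2 fold change of 0.08 (SE 0.07). *Mnx1*, which acts in early pancreas and β-cells, had a mean of 58.7 and -0.10 (SE 0.14). *Evx2*, next to *Hoxd13* in the genome, had signals of 26, 31 and 5 in *Jarid2* WT and of 37, 32 and 48 in *Jarid2* Δpanc, all under 64. *Hoxb5os*, named for the strand opposite *Hoxb5*, was the only one of 3 further *Hox*-named transcripts above 64. Its signals were 102, 101 and 97 in *Jarid2* WT and 95, 117 and 91 in *Jarid2* Δpanc, and the groups overlapped (log2 fold change 0.01, SE 0.11). *Hoxd3os1*, the next in signal, had a log2 fold change of 0.06.

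Among 21 Polycomb genes measured, 16 had a mean signal above 64. By limma's unadjusted p under 0.05, 3 were higher and 0 lower (4.36% and 4.44% of all genes), and none passed the adjusted p. *Mtf2*, a DNA-binding PRC2 subunit, had signals of 432, 355 and 388 in *Jarid2* WT and of 493, 485 and 523 in *Jarid2* Δpanc (log2 fold change 0.36, SE 0.08, adjusted p = 0.366 from limma). *Eed*, a PRC2 core subunit, had 0.11 (SE 0.03), and *Rnf2*, which ubiquitinates histone H2A in PRC1, had 0.21 (SE 0.06). In all 3 genes every *Jarid2* Δpanc array was above every control, as in 5.71% of all genes. *Rbbp7* and *Rbbp4*, histone-binding proteins and the brightest of the list, had 0.00 and 0.09 (SE 0.03 and 0.05).

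On the activating side, all 13 genes had a mean signal above 64, and 1 was higher and 0 lower at the same threshold, against the same shares of all genes. This was the X-linked H3K27 demethylase gene *Kdm6a*, with signals of 358, 347 and 507 in *Jarid2* WT and of 645, 575 and 547 in *Jarid2* Δpanc (log2 fold change 0.56, SE 0.18, adjusted p = 0.483 from limma). *Jarid2* WT replicates 1 and 2, which had low *Xist*, were its lowest arrays. *Kmt2a*, the methyltransferase that maintains *Hox* expression, had 0.24 (SE 0.11) with overlapping groups. *Dpy30* and *Ctcf*, the brightest of the list, had -0.08 (SE 0.06) and 0.07 (SE 0.08).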

How the data were processed

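Whole pancreases of 3 *Jarid2* WT and 3 *Jarid2* Δpanc embryos were profiled on Affymetrix Mouse Genome 430 2.0 arrays from 50 ng of RNA with 2 cycles of cDNA synthesis, per the labels. The authors deposited linear signal intensities, 1 value for each of 45101 probe sets. The values have a mean of 150 on each array after trimming 2% at both ends, and the submitters' processing notes name MAS5, while the study's methods name RMA. Gene symbols came from GEO's platform annotation. Of all probe sets, 34945 had 1 symbol, 932 had several, 13 were control probe sets named for a gene and 9211 were not listed. The brightest probe set stood for each of 18193 genes. Values were floored at 16, taken to log2 and tested in R 4.3.3 with lmFit and eBayes of limma 3.58.1 (2 groups, no block, two-sided), with Benjamini-Hochberg adjustment over all genes. The fit was also run on simulated normal values, without a floor and without genes at the floor on all arrays. That run does not check how flooring affects the fit. Fold changes are *Jarid2* Δpanc over *Jarid2* WT, and 64 was the threshold for a signal.

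Named were every *Hox* gene with a mean above 64, others with an unadjusted p under 0.05 or with groups apart and an array above 64, *Jarid2*, and, from the lists of cofactors, related homeobox genes, Polycomb and trithorax regulators and further *Hox*-named transcripts, genes with an unadjusted p under 0.05 and the 2 brightest. Cell type markers were outside this rule. All others named were chosen after their values were seen. Members and lists were chosen with earlier results of these data known. 3 probe sets with several symbols, at least 1 of them a *Hox* gene, were left out. 1 label of the samples names islets, and the titles, sources and protocol, which name e15.5 pancreas, were followed. Promoter windows came from RefSeq (GRCm38.p6). Alternatives were single arrays left out, other floors, scalings, filters, variance models, probe set rules and thresholds.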

Additional observations from a re-analysis of the deposited data

How the results depend on the processing

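No *Hox* gene reached an adjusted p under 0.05 under any alternative run. *Hoxb2* (0.08 to 0.31) and *Hoxb4* (0.02 to 0.31) kept a positive log2 fold change. Leaving out single arrays gave -0.34 to 0.31 for *Hoxa3* (0.31 with *Jarid2* WT replicate 1 left out, 0.0251 without *Jarid2* Δpanc replicate 3), -0.0172 to 0.24 for *Hoxa5* (-0.0172 without *Jarid2* Δpanc replicate 1), -0.0385 to 0.12 for *Hoxb3* (-0.0385 without *Jarid2* Δpanc replicate 2), -0.0442 to 0.42 for *Hoxb5* (-0.0442 with *Jarid2* WT replicate 2 left out, -0.0408 without *Jarid2* Δpanc replicate 1), -0.26 to 0.16 for *Hoxc4* (0.0117 with *Jarid2* WT replicate 3 left out, 0.0155 and 0.16 without *Jarid2* Δpanc replicates 1 and 3) and -0.0545 to 0.24 for *Hoxd8* (below 0 with *Jarid2* WT replicate 1 or *Jarid2* Δpanc replicate 2 left out). *Hoxb3* was -0.0165 after median centring, and *Hoxa3* 0.00954 as the mean of its probe sets. The cause was not tested. The median over all *Hox* genes was -0.0408 to 0.00251 without single arrays (lowest without *Jarid2* Δpanc replicate 1), -0.0546 after quantile normalization, -0.0441 after median centring, 0.11 over genes above 64 and -0.0338 without genes at the floor on all arrays. At an unadjusted p under 0.05, 0 *Hox* genes were higher and 0 lower, but 0 to 1 were higher without single arrays (*Hoxb4* without *Jarid2* Δpanc replicate 1, *Hoxd9* without *Jarid2* Δpanc replicate 3), and with plain-suffix probe sets preferred 1 was higher (*Hoxa5*) and 1 lower (*Hoxa3*). Testing every probe set on its own, chosen after seeing the data like the single-array fits of the other *Hoxa5* and *Hoxa3* probe sets, gave 1 higher and 1 lower. Same-numbered embryos did not deviate together (correlations -0.0179, -0.00789 and -0.0244), so that the numbers were not taken as pairs, and with the replicate block 1 *Hox* gene was higher (*Hoxb2*, log2 fold change 0.20, unadjusted p = 0.00274 and adjusted p = 0.449 from limma). *Hox* genes above the threshold numbered 3 at the next higher power of 2 and 12 at 32. With each gene read as the mean of all its probe sets, 6 were above 64. Calls at limma's adjusted p under 0.05 over all genes, 0 in either direction as reported, were 0 to 8 lower (8, 3 and 2 without *Jarid2* WT replicates 2 and 3 and *Jarid2* Δpanc replicate 3) and 0 to 4 higher without single arrays, 2 lower and 1 higher after quantile normalization, 3 lower among genes above 64, and 1 higher with every probe set on its own. Under the floor of 16 the arrays give no order, which held for 26.5% to 29.0% of probe sets per array.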
